A study of Mus musculus with 12 samples.

Results

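Replication licensing prepares chromosomes for a single round of DNA copying. The 10 genes described here are Mcm2, Mcm3, Mcm5, Mcm6, Mcm7, Mcm10, Cdc6, Cdt1, Pcna and E2f1. They encode parts of that machinery, factors of the copying that follows it (Mcm10 and Pcna) or a transcription factor for such genes (E2f1). Their members among the H3K27ac regions were all regions that carry one of these names in the deposited annotation, whatever the class of region. Of 36387 regions, 10 carried such a name, and they belonged to 5 of the 10 genes: 4 to Mcm10, 3 to Mcm7 and 1 each to Mcm2, Mcm5 and Pcna. Of the 10 regions, 9 are annotated as promoter within 1 kb of a start and 1, at Mcm10, as distal intergenic. No region carried the name Mcm3, Mcm6, Cdc6, Cdt1 or E2f1.

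H3K27ac, acetylation of lysine 27 on histone H3, marks active promoters and enhancers and was measured by chromatin immunoprecipitation and sequencing (ChIP-seq). All mice carried a floxed Cox10 allele. The wild-type group received AAV8-GFP and the Cox10-/- group AAV8-Cre, a viral vector that delivers a recombinase, 4 weeks before a 70% partial hepatectomy; regenerating liver was collected on day 2, with 3 H3K27ac libraries per genotype. COX10 makes the heme used by cytochrome c oxidase, the last complex of the respiratory chain. The promoter that drives Cre, the strain, the age and the sex of the mice are not named in the labels, which also leave unsaid whether the numbered libraries come from separate animals, so p-values measure the spread between libraries, which may be technical.

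During G1 the origin recognition complex binds origins, and CDC6 and CDT1 then load the ring of MCM proteins that includes MCM2, MCM3, MCM5, MCM6 and MCM7, the core of the replicative helicase. MCM10 acts when the loaded helicase is switched on, and PCNA is the sliding clamp that holds polymerases on DNA. E2F1 is a transcription factor whose family activates many of these genes as cells leave quiescence. In the liver this programme is switched on when hepatocytes re-enter the cell cycle after partial hepatectomy.

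The promoter sequences of 6 of these genes show the letters around the starts that the H3K27ac regions flank or leave out. They are the 250 bases before the RefSeq start (GRCm38.p6, the patch release of mm10), read on the gene's own strand from 5′ to 3′, with E2F letters in capitals (TTTCCCGC, TTTGGCGC, TTTCGCGC or TTTGCCGC, on either strand). Mcm5, Mcm7, Mcm2 and Pcna have a region beside this start, Mcm10 has its regions far from it, and Mcm6 has E2F letters and no region.
Mcm5, chr8:75109259-75109508, plus strand: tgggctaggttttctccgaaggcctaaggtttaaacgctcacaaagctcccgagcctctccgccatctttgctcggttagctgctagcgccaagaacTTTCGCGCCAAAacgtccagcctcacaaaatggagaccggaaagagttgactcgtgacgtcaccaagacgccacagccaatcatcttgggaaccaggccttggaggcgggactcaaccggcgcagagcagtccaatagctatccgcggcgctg
Mcm7, chr5:138171884-138172133, minus strand: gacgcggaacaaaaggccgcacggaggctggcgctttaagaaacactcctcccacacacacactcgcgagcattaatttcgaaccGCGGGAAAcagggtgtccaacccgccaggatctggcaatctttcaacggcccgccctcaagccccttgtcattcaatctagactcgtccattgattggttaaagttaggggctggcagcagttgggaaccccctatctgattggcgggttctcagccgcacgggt
Mcm2, chr6:88898781-88899030, minus strand: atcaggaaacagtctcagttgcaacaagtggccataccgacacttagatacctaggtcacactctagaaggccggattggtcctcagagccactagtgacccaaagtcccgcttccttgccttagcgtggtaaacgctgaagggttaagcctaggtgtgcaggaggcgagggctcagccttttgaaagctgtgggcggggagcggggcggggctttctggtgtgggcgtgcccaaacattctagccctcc
Pcna, chr2:132253181-132253430, minus strand: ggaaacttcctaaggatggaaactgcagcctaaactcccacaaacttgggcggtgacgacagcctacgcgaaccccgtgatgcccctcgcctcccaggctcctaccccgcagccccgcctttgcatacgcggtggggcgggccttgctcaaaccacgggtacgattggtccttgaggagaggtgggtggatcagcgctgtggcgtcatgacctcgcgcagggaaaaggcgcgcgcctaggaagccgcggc
Mcm10, chr2:5012792-5013041, minus strand: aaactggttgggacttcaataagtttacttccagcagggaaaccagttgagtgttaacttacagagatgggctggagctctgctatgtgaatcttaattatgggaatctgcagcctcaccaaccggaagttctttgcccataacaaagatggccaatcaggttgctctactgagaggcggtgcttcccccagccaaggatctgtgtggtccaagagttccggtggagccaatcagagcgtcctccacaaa
Mcm6, chr1:128359706-128359955, minus strand: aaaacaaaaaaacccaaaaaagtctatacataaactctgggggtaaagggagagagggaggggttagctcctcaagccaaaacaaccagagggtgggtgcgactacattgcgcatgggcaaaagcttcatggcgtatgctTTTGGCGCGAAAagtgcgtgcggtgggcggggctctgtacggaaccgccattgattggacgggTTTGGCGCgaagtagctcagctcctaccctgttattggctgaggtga
In Mcm5 the capitals hold overlapping matches, TTTCGCGC at -153 to -146 and GCGCCAAA at -149 to -142 from the start. In Mcm7 GCGGGAAA lies at -165 to -158. In Mcm6 TTTGGCGC occurs at -110 to -103, overlapped by GCGCGAAA at -106 to -99, and again at -47 to -40.

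Searched over the 300 bases from 250 before to 50 after each start, these E2F letters occurred in 6 of the 10 genes (Mcm3, Mcm5, Mcm6, Mcm7, Cdc6 and Cdt1) and in 2.26% of 32851 RefSeq promoters. The same letters without their first T, a form that every match of the full letters also holds, occurred in the same 6 genes and in 9.57% of promoters. Of those 6 genes, 2 had an H3K27ac region (Mcm5 and Mcm7), and of the 4 without E2F letters, 3 had one (Mcm2, Mcm10 and Pcna). CCAAT, the NF-Y letters, occurred in 7 genes against 37.4% of promoters, and GGGCGG, the SP/KLF letters, in 8 against 35.7%. TTTGAA, the letters of the cell cycle homology region, occurred only in Mcm2 among the 10 genes, against 17.9% of promoters, and CACGTG, an E-box, in 0 of the 10 against 7.15%. Each was searched on both strands, and GGGCGG and the E2F letters can share bases. A match describes letters in this window and not binding. The number of CpG dinucleotides in the printed bases ran from 4 at Mcm10 to 22 at Pcna.

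The libraries held 3282878 to 4187377 reads in regions, and values are normalised reads per region, that is whole reads divided by a size factor for each library. The deposited size factors were 0.730 to 0.782 in wild type and 1.177 to 1.32 in Cox10-/-. Whole reads in regions were also fewer in Cox10-/-, at 3282878 to 3385453 against 3897454 to 4187377. On the normalised scale the median log2 fold change over all regions was -1.04 (2.06-fold lower). Spike-in chromatin was added per the labels' protocols, but no source used here says where the factors come from. How far this shift is a loss of the mark or a product of scaling was not tested. By limma at adjusted p under 0.05, 87.2% of all regions were lower in Cox10-/- and 4.46% higher. To set this common shift aside, the median region of every library was brought to the same level (centring), after which 32.4% were lower and 33.6% higher. The region named Cox10 is an intron region (chr11:63977336-63977787) and was 3.62-fold higher in Cox10-/- (adjusted p = 2e-12), which does not check the deletion. All 6 hepatocyte markers had regions, and their summed signal was 11700 to 12400 in wild type and 3090 to 3680 in Cox10-/-. Of 6 macrophage markers, 2 had regions, at 290 to 304 and 518 to 611, and 4 did not, among them Adgre1 and Clec4f. Of 6 endothelial markers, 2 had regions, at 521 to 588 and 312 to 388; 0 of 6 stellate markers had one. Biliary markers had regions for 2 of 6 (97.2 to 118 and 82.6 to 97.7), lymphocyte markers for 1 of 5 (121 to 169 and 31.1 to 36.3) and erythroid markers for 1 of 4 (226 to 237 and 127 to 144). The lymphocyte value is that of Ptprc alone, as Cd3e, Cd79a, Cd2 and Ms4a1 had no region. It does not stand for lymphocytes as a type. In whole liver, fewer cells of a type and less of the mark per cell cannot be told apart, and the part of these marker shifts in the results below was not tested.

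All 10 regions of the licensing genes were lower in Cox10-/- on the deposited scale, by 1.51-fold to 5.95-fold, and 0 were higher. The 3 Cox10-/- libraries lay below all 3 wild-type libraries at each of the 10 regions, as they did at 86.4% of all regions. The count therefore lies near the background of 87.2%, and the size of the change separates the genes. Mcm10 lost most, with a median log2 fold change of -2.44 over its 4 regions. The 6 regions of Mcm2, Mcm5, Mcm7 and Pcna had a median of -1.08, against -1.04 for all regions and -0.82 for the promoter regions of 9663 genes, 93.8% of which were lower and 0.807% higher. After centring, 4 of the 10 regions were lower, all of them at Mcm10, and 1 was higher, at Mcm7. Over all regions, 32.4% were lower and 33.6% higher after centring. The count of lower regions lies near that share, and its 4 regions are neighbours under 1 gene name.

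**Figure D1:**
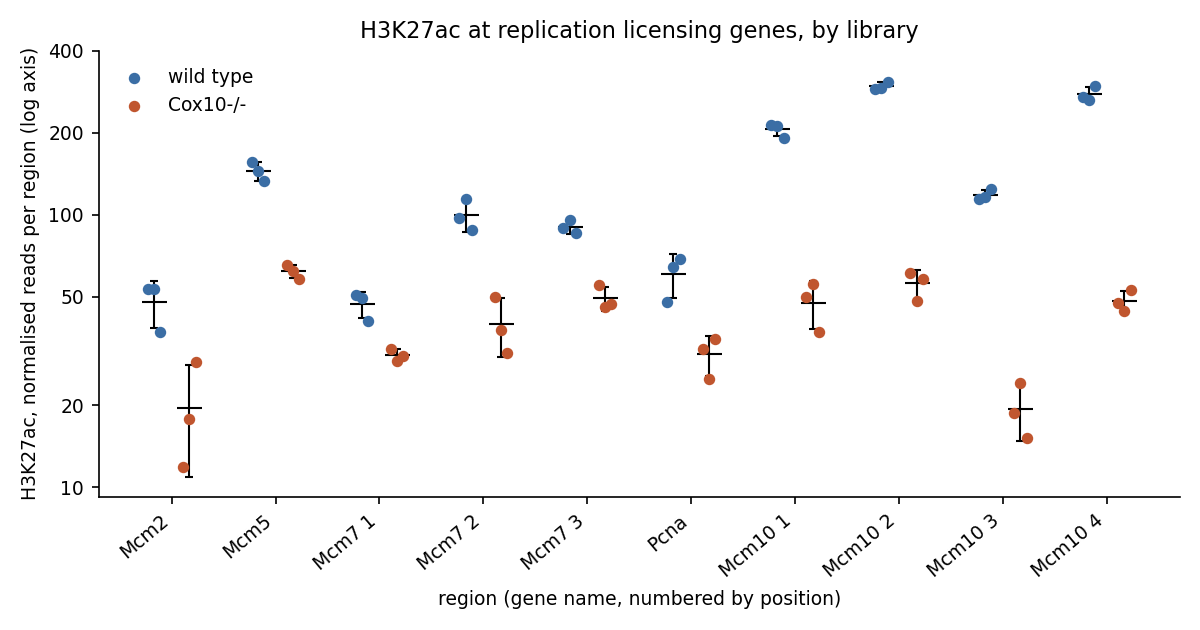
Normalised H3K27ac reads per region (log axis) at the 10 regions named after licensing genes, numbered by position within a gene. Points are the 3 libraries of each genotype, horizontal lines the means and bars the SD; Mcm10 region 2 has a mean of 297 in wild type and 56.0 in Cox10-/-, while the Mcm7 region 1 means are 46.9 and 30.6.

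Among the subunits of the MCM ring, Mcm5 had the region of highest wild-type signal per kilobase. It lies at -672 to -183 bases from the start of Mcm5 (chr8:75108837-75109326, plus strand), upstream of the E2F letters printed above. Wild-type libraries read 156, 145 and 133 normalised reads there, and Cox10-/- libraries 65.4, 62.1 and 58.3. The groups were well apart, and the libraries within each were close. The region was 2.31-fold lower (95% interval 1.91 to 2.79, SE 0.14 on the log2 scale, adjusted p = 1.3e-15 by limma). With libraries centred on the median region the difference was -0.16 (adjusted p = 0.27), and with libraries centred on the median promoter region it was -0.30 (adjusted p = 0.03). The call on Mcm5 beyond the common shift thus depended on which regions set the centre.

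Mcm2 had a small region 139 to 358 bases inside the gene (chr6:88898422-88898641, minus strand). It read 53.2, 53.4 and 37.1 in wild type and 11.9, 17.8 and 28.8 in Cox10-/-. These values rest on 14 to 40 reads per library, and the spread within Cox10-/- was wide (19.5 ± 8.58, SD, n = 3), with the groups still not overlapping. The region was 2.50-fold lower (log2 fold change -1.32, interval -1.81 to -0.83, adjusted p = 3.6e-07). The centred difference of -0.27 had an interval of -0.77 to 0.23, so that neither a further loss nor a smaller loss than that of the median region could be told at this depth.

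Mcm7 carried 3 regions on chromosome 5 around its start, which lies 138 bases from that of Ap4m1, which encodes a subunit of an adaptor complex and is transcribed in the opposite direction. Region 3 (chr5:138172123-138172450) lies at -567 to -240 bases from the Mcm7 start, on the Ap4m1 side, and read 89.1, 95.9 and 85.6 in wild type and 55.2, 46.0 and 47.0 in Cox10-/-. Region 2 (chr5:138171408-138171820), 63 to 475 bases inside the gene, read 97.1, 114 and 88.2 against 50.1, 37.9 and 31.1. Region 1 (chr5:138171031-138171241), 25 to 235 bases after a further RefSeq start of Mcm7, read 50.6, 49.3 and 40.9 against 32.3, 29.1 and 30.3. At each of them all wild-type libraries were above all Cox10-/- libraries, with the narrowest gap at region 1. Which of the genes the acetylation at these starts belongs to cannot be told from the data, and the hairpins of Mir25, Mir93 and Mir106b lie further inside Mcm7.

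The regions of Mcm7 differed in size of change. Region 2 was 2.51-fold lower (adjusted p = 2.4e-13), region 3 was 1.81-fold lower (adjusted p = 2.8e-07) and region 1 was 1.51-fold lower (adjusted p = 0.0058). The 95% intervals of regions 1 and 2 were 1.13 to 2.02 and 1.99 to 3.15, which just meet, and the difference between the regions was not itself tested. After centring, region 1 was higher by 0.45 (adjusted p = 0.041), while region 3 stood at 0.19 (adjusted p = 0.25) and region 2 at -0.27 (adjusted p = 0.12). The call on region 1 was lost with edgeR or DESeq2 on the recovered reads, on the TMM scale, without wild-type library 3, without Cox10-/- library 1 or 3, and with promoter centring (0.31, adjusted p = 0.18). With promoter centring, region 2 was lower instead (-0.42, adjusted p = 0.017).

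Pcna had 1 region, 45 to 298 bases inside the gene (chr2:132252882-132253135, minus strand). Its libraries read 47.9, 64.4 and 69.0 in wild type and 32.3, 25.0 and 34.9 in Cox10-/-, with no overlap. It was 1.93-fold lower (95% interval 1.47 to 2.54, adjusted p = 4.8e-06), and the centred difference was 0.10 (interval -0.28 to 0.49, adjusted p = 0.65). The change at Pcna was thus close to that of the median region. A further region on the other side of the start, named AV099323, was lower by a similar 1.72-fold.

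The largest changes of the 10 regions were at Mcm10. Region 2 (chr2:4994507-4995819) read 290, 292 and 308 in wild type and 61.2, 48.4 and 58.3 in Cox10-/-. Region 4 (chr2:4996716-4997806) read 270, 263 and 297 against 47.6, 44.4 and 53.0. Region 3 (chr2:4995955-4996380), which lies between them, read 114, 116 and 124 against 18.7, 24.2 and 15.2. At each, the Cox10-/- libraries kept 16.4% to 18.9% of the mean wild-type signal, and all wild-type libraries lay far above all Cox10-/- libraries. The distal region 1 (chr2:4988110-4989120) read 213, 212 and 192 against 50.1, 55.7 and 37.1, or 23.2% of wild type. The losses at regions 1 to 4 were 4.30-fold, 5.25-fold, 5.95-fold and 5.63-fold, with adjusted p by limma between 1.5e-48 at region 4 and 2.7e-30 at region 3. After centring, the log2 differences were -1.05, -1.34, -1.52 and -1.44, with adjusted p of 1.6e-11 or less at all 4.

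**Figure D2:**
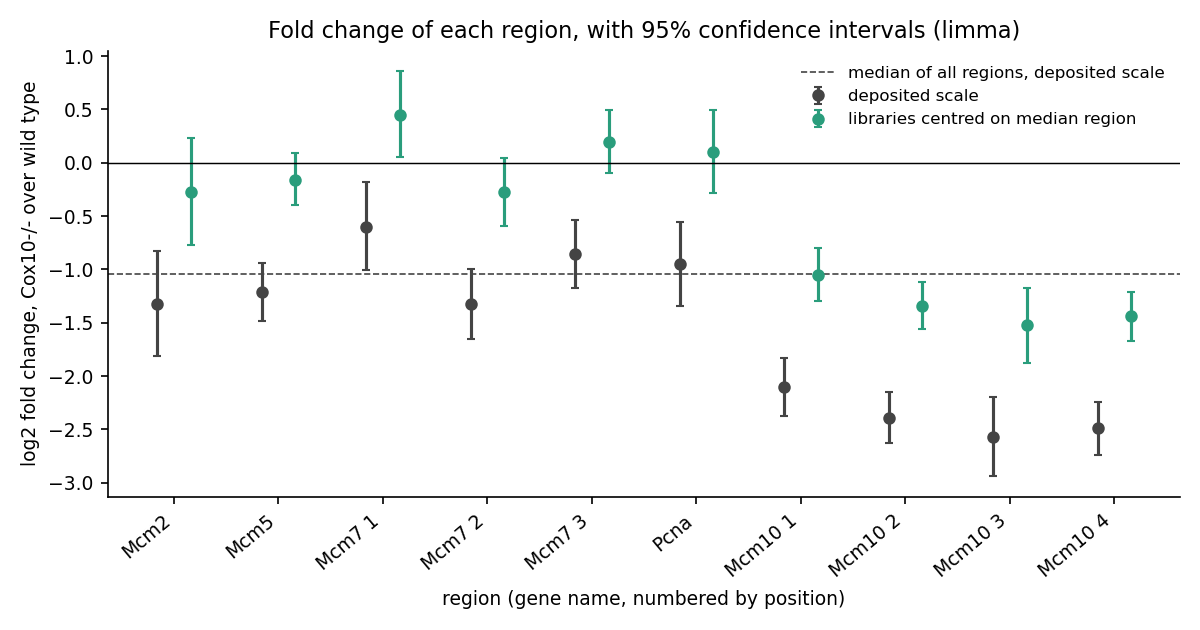
Log2 fold change of Cox10-/- over wild type at each of the 10 regions, with 95% confidence intervals from limma, on the deposited scale (dark) and with libraries centred on the median region (green). The dashed line is the median of all regions on the deposited scale, -1.04; on the centred scale the intervals of the 4 Mcm10 regions lie below 0.

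To set Mcm10 against the other licensing genes within each library, the mean log2 value of its 4 regions was compared with that of the other 6 regions, a difference that no scaling of a library can move by more than the pseudocount does. Mcm10 exceeded the others by 1.49 ± 0.136 (SD, n = 3, range 1.37 to 1.64) in wild type and by 0.14 ± 0.159 (n = 3, range -0.02 to 0.29) in Cox10-/-. The change was -1.35 and the groups did not overlap. Mcm10 was singled out after its values were seen, so this is a description with no test.

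The acetylation named after Mcm10 does not lie at the RefSeq start of the gene. Mcm10 runs on the minus strand from 5012791 down to 4990724 on chromosome 2, and its 3 promoter-labelled regions lie 14985 to 18284 bases downstream of that start, inside the gene and toward its 3′ end. Region 1 lies beyond the 3′ end. No region lay within 1 kb of the Mcm10 start whose promoter is printed above. The sources used here do not say which start the deposited annotation took for these regions. Of 12466 promoter-labelled regions whose symbol has a RefSeq start, 947 (7.60%) lay over 10 kb from it, with a median centred change of 0.01 against 0.19 for those within 10 kb. By contrast the nearest edges of the Mcm2, Mcm5 and Pcna regions lay 139, 183 and 45 bases from their RefSeq starts, and those of Mcm7 lay 63 and 25 bases from its 2 RefSeq starts.

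**Figure D3:**
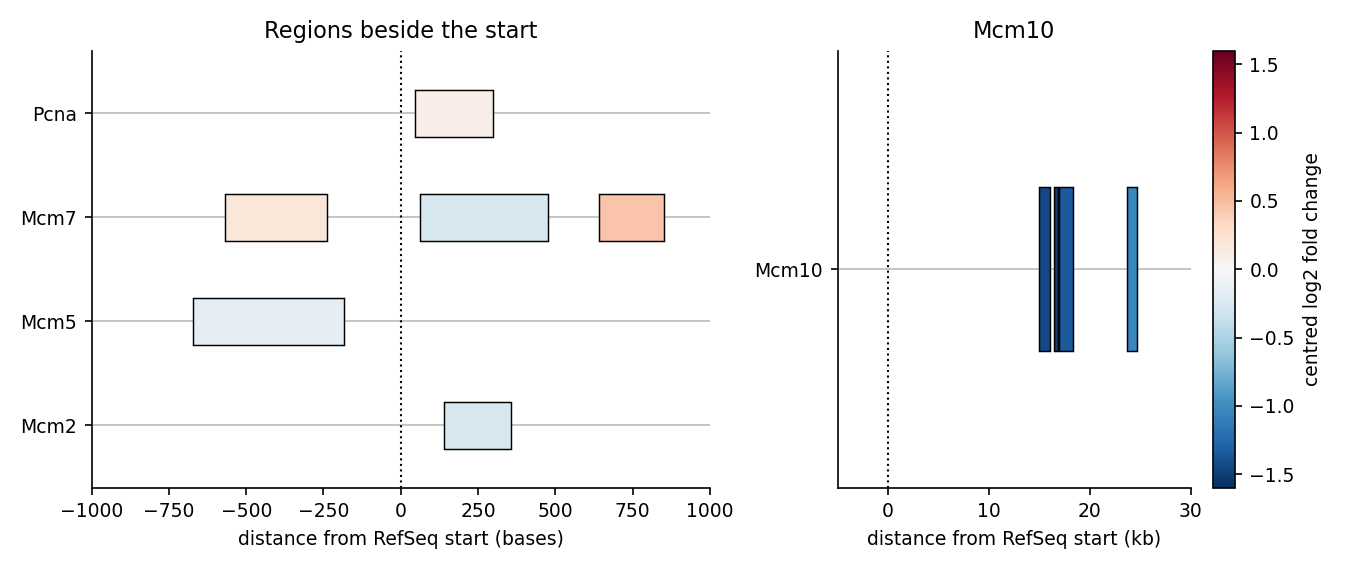
Position of each region relative to the RefSeq start of its gene (dotted line), in bases for Mcm2, Mcm5, Mcm7 and Pcna (left) and in kb for Mcm10 (right), with distances positive in the direction of transcription and colour giving the centred log2 fold change. The Mcm10 regions begin 14985 bases after the start, and their centred changes run from -1.05 to -1.52.

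The losses around Mcm10 were shared by the nearest region of another name. That region, named Ucma after a cartilage matrix protein (chr2:4987191-4987847, distal intergenic), was 4.37-fold lower (log2 fold change -2.13, 95% interval -2.42 to -1.84; centred -1.07). The other regions within 100 kb carry the names Phyh, a peroxisomal enzyme, and Optn, an autophagy receptor. Their log2 fold changes were -0.70 to -1.75, each above the -2.10 of the weakest Mcm10 region. Over all 13 neighbouring regions the median was -1.17, with 6 lower and 1 higher after centring, against 32.4% lower and 33.6% higher over all regions. The gene that the regions inside and behind Mcm10 act on was not measured, and their name gives only the nearest gene or start.

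**Figure D4:**
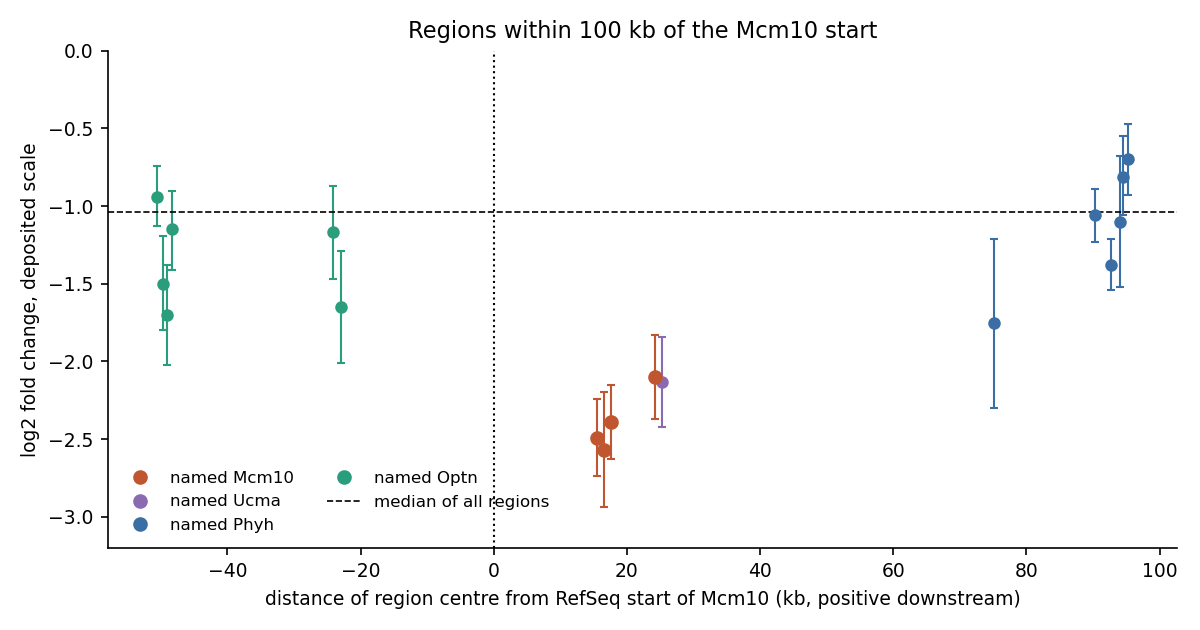
Log2 fold change on the deposited scale of the regions within 100 kb of the Mcm10 start, against the distance of the region's centre from that start in kb (positive downstream), with 95% confidence intervals from limma. The dashed line is the median of all regions, -1.04; the 4 Mcm10 regions and the Ucma region lie between -2.10 and -2.57, below the Phyh and Optn regions.

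Regions of other names around the remaining licensing genes are given in the same way. Over all regions, 32.4% were lower and 33.6% higher after centring. Many of the neighbours are adjacent regions of the same name, so the counts below are not counts of separate genes. Within 100 kb of the Mcm5 start, the 5 regions named Hmox1, the heme oxygenase, and Tom1 had log2 fold changes of -0.15 to -0.70 and all 5 were higher after centring, while Mcm5 itself stood at -1.21. Around Mcm2 the 6 regions named Tpra1, Abtb1 and Podxl2 ranged from -0.91 to 0.13, against -1.32 for Mcm2, and 4 of the 6 were higher after centring. Around Pcna the 14 other regions, most of them named Cds2, had a median of -0.44, against -0.95 for Pcna. After centring, 12 of the 14 were higher and 0 lower. The 22 regions around Mcm7 had a median of -1.14, with 8 lower and 5 higher after centring. All 8 lower ones were named Zkscan1 and lay 82.26 to 95.73 kb downstream of the Mcm7 start. The nearest regions of another name on either side, Cops6 and Taf6, were at -0.80 and -1.06. Each of Mcm2 and Mcm5 thus lost more than any neighbour within 100 kb, a description that was not tested.

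Per kilobase, wild-type signal at the 10 regions ran from 203 normalised reads at Mcm10 region 1 to 295 at Mcm5, against a median of 265 at 15980 promoter-labelled regions. Mcm10 region 3 (278) and Mcm7 region 3 (275) followed Mcm5, and Mcm2 (218) and Mcm7 region 1 (222) stood just above Mcm10 region 1. The high totals of Mcm10 thus go with wide regions of 1011 to 1313 bases, other than the 426 bases of region 3. In total signal, 6 of the 10 regions were below the promoter median of 137.

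The remaining licensing genes gave no level to compare. Over the whole table, 4 of the 10 genes had a region of any name within 1 kb of a RefSeq start (Mcm2, Mcm5, Mcm7 and Pcna), against 46.0% of 16705 RefSeq coding genes. For Mcm6 the nearest region lay 38.4 kb away in an intron named Dars. For Cdc6, which loads the MCM ring, it lay 26.6 kb away and was named Rara, and for E2f1 it lay 31.6 kb away and was named Pxmp4. The region nearest to Mcm3 lay 194 kb away and was named Tram2. Cdt1, the partner of CDC6 in loading, is counted among the 10 genes, but it is unsure whether the rows used here cover its surroundings, which were not analysed here. A gene without a region in the table has no measured value, so nothing is said of its acetylation. Mcm4, the remaining subunit of the ring, lies on chromosome 16, which was not analysed here.

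The authors' deposited table gives its own log2 fold changes for the same regions. In the authors' deposited table they run from -0.60 at Mcm7 region 1 (adjusted p 0.032) to -2.56 at Mcm10 region 3 (adjusted p 7.4e-25). The authors' deposited table puts Mcm2 at -1.24 (adjusted p 0.00018), where the limma estimate was -1.32.

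The genes around licensing were taken from a list of 86 replication genes in 7 roles, each measured at its promoter region of highest signal. Of these, 51 had such a region. All 51 were lower on the deposited scale, where 93.8% of genes were, with a median of -0.93 against -0.82. After centring, 4 of the 51 were lower, 18 were higher and 29 were not called, against 15.4% lower and 49.2% higher among 9663 genes, and their median was 0.12 against 0.23. With libraries centred on the median promoter region the split was 9 lower and 11 higher. With the mean over all regions of a gene, which 55 genes have, it was 10 lower and 17 higher. Promoter centring also moved the calls over all regions, from 11800 lower and 12224 higher to 14417 and 8988. Shares over all genes are not given for either alternative. The centred counts by role below stand beside the same 15.4% lower and 49.2% higher among all 9663 genes.

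Among the loaders of the MCM ring and their regulators, 9 of 12 genes had a promoter region, and after centring 0 were lower and 3 higher. Gmnn, which encodes geminin, the inhibitor of CDT1, had the lowest centred value of this role: it read 145, 141 and 130 in wild type and 58.6, 65.4 and 51.5 in Cox10-/-, 2.36-fold lower, with a centred difference of -0.18 (adjusted p = 0.20). The mean over all Gmnn regions was lower (-0.25, adjusted p = 0.027). Orc6, a subunit of the origin recognition complex, had the highest: it read 50.6, 75.3 and 60.1 against 43.3, 33.9 and 42.4, and its centred value was higher by 0.44 (adjusted p = 0.026). Origin firing genes had a promoter region in 3 of 13, and 0 were called after centring. They ran from Dbf4, the activator of the CDC7 kinase, at 0.03 (adjusted p = 0.83) to Gins4, a helicase subunit, at 0.27 (adjusted p = 0.19).

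Of 28 genes for polymerases, the clamp loader and the fork, 16 had a promoter region, with 0 lower and 5 higher after centring. Rfc5, a subunit of the loader that places PCNA on DNA, was 2.58-fold lower with a centred value of -0.31 (adjusted p = 0.18). Pole4, a subunit of DNA polymerase epsilon, was 1.41-fold lower, and its centred value was higher by 0.56 (adjusted p = 0.00049). The call on Pole4 turned with the mean over all its regions, which was lower by limma (centred -0.25, adjusted p = 0.0243). Dna2, a nuclease and helicase that was named after its values were seen, was lower on the same measure (-0.75, adjusted p = 0.000115). Of 8 genes for chromatin replication, 4 had a promoter region, with 1 lower and 2 higher. Asf1b, a histone chaperone, read 41.2, 60.3 and 55.0 in wild type and 16.1, 16.1 and 15.2 in Cox10-/-, 3.12-fold lower, with a centred value of -0.59 (adjusted p = 0.025). Dnmt1, the maintenance DNA methyltransferase, was 1.55-fold lower and higher by 0.42 after centring (adjusted p = 0.00019).

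Of the nucleotide supply genes, Tyms, thymidylate synthase, had the highest centred value: it read 86.5, 94.5 and 76.7 in wild type and 45.9, 51.7 and 40.2 in Cox10-/-, 1.86-fold lower, with a centred difference of 0.16 (adjusted p = 0.36). In the E2F and retinoblastoma family, 10 of 12 genes had a promoter region, with 2 lower and 4 higher. Tfdp2, a dimerisation partner of E2F proteins, was 2.97-fold lower with a centred value of -0.52 (adjusted p = 0.00017). E2f3, an activator of the family, was 1.38-fold lower and higher by 0.59 after centring (adjusted p = 1.7e-06), a call that ended with the mean over all its regions (-0.02, adjusted p = 0.834). Rbl2, which encodes the pocket protein p130 and was named after its values were seen, was 2.84-fold lower with a centred value of -0.46 (adjusted p = 0.00043); its mean over all regions was -0.21 (adjusted p = 0.0724). The regions used for Tfdp2 and Asf1b lay 61.7 kb and 8.92 kb from their RefSeq starts.

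Genes that act in the turnover of licensing factors had a promoter region in 5 of 7, with 0 lower and 4 higher after centring. Among all genes, 15.4% were lower and 49.2% higher. Cul4b, a scaffold of the ubiquitin ligase that removes CDT1, was 1.56-fold lower on the deposited scale and higher by 0.41 after centring (adjusted p = 0.0031). The region used for Cul4b lay 11.2 kb from its RefSeq start. Fbxo5, which encodes the inhibitor EMI1, had the lowest centred value of the role at 0.12 (adjusted p = 0.62). At the promoter region, none of the 51 genes had a centred value as low as the -1.05 of Mcm10 region 1, the highest of the 4 Mcm10 regions. The regions compared are unlike: Mcm10 region 1 is distal intergenic, and the others lie far from the RefSeq start. The lower quartile of the centred change was -0.05 for genes at their promoter region and -0.53 for all regions. E2f7, a repressor of the E2F family, was named after its values were seen. With the mean over all regions of a gene it was at -1.47 (adjusted p = 1.35e-05 by limma). That is lower than the median of the 4 Mcm10 regions, -1.39, although a mean is set beside a median there.

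**Figure D5:**
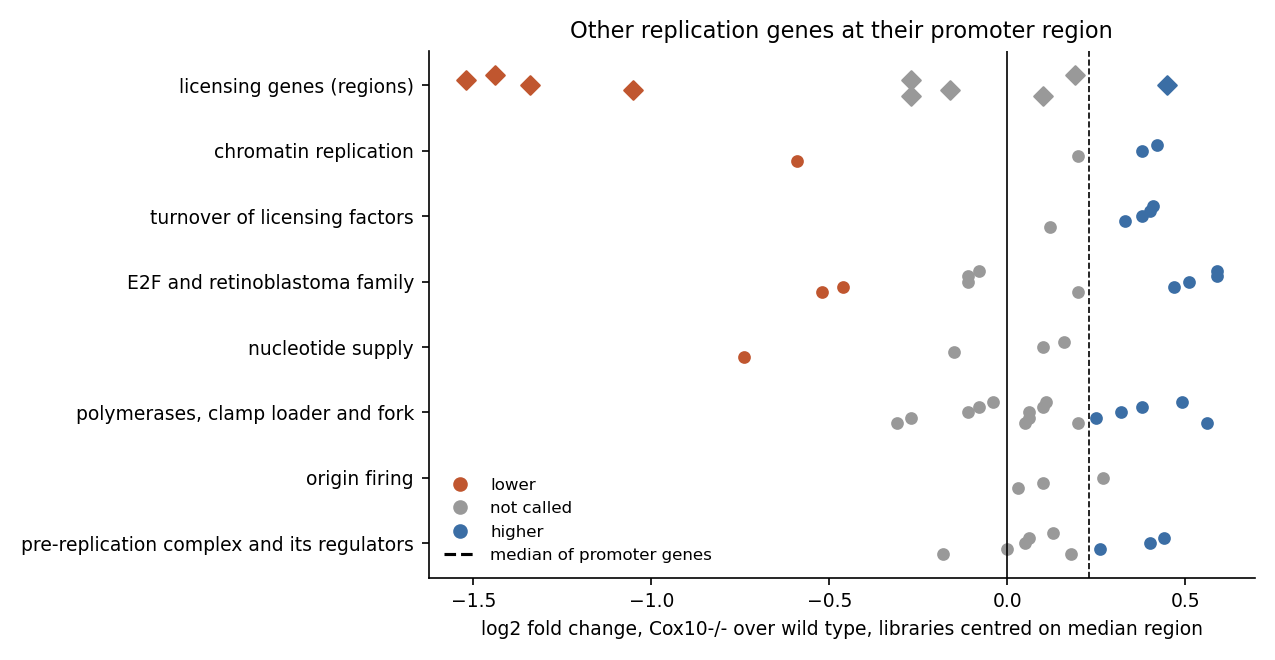
Centred log2 fold change of Cox10-/- over wild type at the promoter region of 51 replication genes by role (circles) and at the 10 licensing gene regions (diamonds), coloured by call at adjusted p under 0.05. The solid line is the median region and the dashed line the median of 9663 genes, 0.23. The 4 Mcm10 regions lie lowest, but none of them lies within 1 kb of the RefSeq start.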

How the data were processed

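The members and the gene, marker and motif lists were chosen with earlier results of these data known. H3K27ac was measured in 6 libraries; 6 input libraries were not used. The authors deposited normalised reads per region (a signal) with log2 fold changes, a score (the log2 fold change over its standard error), p-values and adjusted p-values. Every value was a whole read count divided by a size factor per library (100% whole within 0.01), and no source used here says where the factors come from, although spike-in chromatin was added per the labels' protocols. Per the submitters' processing notes, which give no roles, the tools were deepTools 3.5.0, MACS and BWA 0.7.5, on mm10. Coordinates are as deposited, whose counting base is not stated. Of 36446 rows, 59 repeats were dropped.

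Log2(value + 1) was fitted with limma 3.58.1 (R 4.3.3, trend, genotype only) over 36387 regions, with Benjamini-Hochberg adjustment and calls at adjusted p under 0.05. Fold changes are on that scale, where the added 1 draws those of low regions toward 0. Mcm2, a low region, did not show this: its log2 fold change was -1.32 by limma, -1.27 by edgeR and -1.28 by DESeq2. The same fit followed centring of each library on its median. edgeR 4.0.16 and DESeq2 1.42.0 on recovered reads, other pseudocounts, filters, centres and left-out libraries were alternatives; promoter-centred values of single regions were chosen after seeing the data. Libraries held 3282878 to 4187377 reads in regions, and libraries of a genotype differed by 1.06 to 1.19 times counting noise (chi-square per degree of freedom). Genes were named by rule as the 10 licensing genes, the lowest and highest centred gene of each role, Cox10, and genes with a start beside a member region; 1 gene that this rule names is counted but not reported here. Rbl2, Dna2 and E2f7 were named after their values were seen. Promoter sequences are from RefSeq (GRCm38.p6) and matched all 10 genes.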

Additional observations from a re-analysis of the deposited data

How the results depend on the processing

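On the deposited scale, every alternative run called all 10 licensing regions lower and 0 higher, and with the replicate block 10 were lower. Same-numbered libraries did not deviate together across genotypes (correlations -0.001, 0.007 and 0.005), so the numbers were not taken as pairs, and the block left the centred counts at 4 lower and 1 higher. Direction turned with the scale at 3 regions: Pcna was 0.10 centred and 0.08 on the TMM scale, Mcm7 region 1 was 0.45 and 0.43, and Mcm7 region 3 was 0.19 and 0.18. The centred count of lower regions was 4 in every alternative but 3: it was 5 without Cox10-/- library 1 or 3, and 6 with promoter centring. The centred count of higher regions, 1, became 0 at adjusted p under 0.01, with edgeR, with DESeq2, with promoter centring and on the TMM scale, and was 0 to 1 when each library was left out. Of the other replication genes, the count lower after centring, 4, became 9 with promoter centring and 10 with the mean over all regions of a gene (3 to 5 when a library was left out), and the count higher, 18, became 11 with promoter centring and 12 with DESeq2 (14 to 17 when a library was left out). Over all regions, promoter centring moved the calls from 11800 lower and 12224 higher to 14417 and 8988. The causes were not tested. Depth limits the small regions most: Mcm2 rests on 14 to 40 reads, and its log2 fold change was -1.63 to -1.03 when each library was left out.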
